A study of Mus musculus with 10 samples.

Results

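The immediate early response genes Ier2, Ier5, Ier5l and Ier3, together with Csrnp1, Ppp1r15a and Myc, were followed across wild-type (WT) and WASp-deficient (WKO) mouse macrophages with and without confinement. They are the 7 rows of the deposited table that carry these symbols, out of 57010 gene identifiers, and all 7 were among the 12455 genes tested, those whose normalized read counts averaged 10 or more. Macrophages were grown for 7 days from cells flushed from the femurs of WT mice or of mice lacking WASp, with 20 ng/mL macrophage colony-stimulating factor, and either left unconfined or pressed for 1 h under silicone (PDMS) micropillars that leave a gap of 3 µm. The groups held 2 WT unconfined, 2 WKO unconfined, 3 WT confined and 3 WKO confined libraries, each named below by the replicate number in its title. WASp, the product of Was, activates the Arp2/3 complex, which builds branched actin networks in blood cells. The labels give neither the age or number of the mice, nor whether unconfined cells went through the same device without pressure, nor whether replicate libraries came from separate mice. P-values therefore measure the spread between these libraries, which may in part be technical.

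Immediate early genes are transcribed within minutes of a stimulus from promoters that are already accessible, without need for new protein, and their messenger RNAs are short-lived. IER2, IER5 and IER5L share an N-terminal domain; IER2 is a nuclear protein, and IER5 binds heat shock factor 1 (HSF1) and promotes its dephosphorylation. IER3, also called IEX-1, is a small unrelated protein, induced by NF-kB and p53, that acts on cell survival and ERK signalling. CSRNP1 is a nuclear transcriptional activator of the cysteine-serine-rich family, first described as an Axin-induced gene. PPP1R15A, or GADD34, brings protein phosphatase 1 to the translation factor eIF2alpha and so ends the block on protein synthesis that the integrated stress response imposes. MYC, with its partner MAX, binds E-box sequences and drives genes of growth and ribosome production, and in macrophages it responds to growth factors and inflammatory signals.

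The proximal promoters were examined because 5 of the genes moved together, and those held in the RefSeq table (build GRCm38.p6) are given 5′ to 3′ on the strand of the gene. No window was held for Ier2 or Myc, and Ier5l, which has one, was not among the 5 that moved together. Each sequence given is the stretch nearest to a RefSeq start that lies outside annotated exons in GENCODE M21, whether of the gene or of another. For Ppp1r15a, 112 of the 250 bases upstream lie in such exons of other genes. Capitals mark matches on either strand to a cyclic AMP response element (TGACGTCA), to an NF-kB site, to the CCAAT box, to the GC box (GGGCGG) or to the binding site of the AP-1 factors (TGANTCA).
Ier3, chr17:35821463-35821683, plus strand: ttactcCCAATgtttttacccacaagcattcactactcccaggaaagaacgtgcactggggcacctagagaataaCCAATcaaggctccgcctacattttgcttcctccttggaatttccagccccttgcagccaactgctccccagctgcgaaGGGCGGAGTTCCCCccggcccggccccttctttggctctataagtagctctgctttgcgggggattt
Csrnp1, chr9:119983024-119983145, minus strand: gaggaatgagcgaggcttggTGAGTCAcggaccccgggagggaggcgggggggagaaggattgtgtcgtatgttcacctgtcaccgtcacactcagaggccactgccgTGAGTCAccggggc
Ppp1r15a, chr7:45526269-45526329, minus strand: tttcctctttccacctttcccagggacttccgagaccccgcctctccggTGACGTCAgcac
Ier5, chr1:155099637-155099886, minus strand: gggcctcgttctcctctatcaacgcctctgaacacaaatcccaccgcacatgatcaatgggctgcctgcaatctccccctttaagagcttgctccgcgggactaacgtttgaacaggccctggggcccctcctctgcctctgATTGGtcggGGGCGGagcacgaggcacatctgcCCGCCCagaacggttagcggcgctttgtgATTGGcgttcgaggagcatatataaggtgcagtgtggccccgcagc
Ier5l, chr2:30474220-30474449, minus strand: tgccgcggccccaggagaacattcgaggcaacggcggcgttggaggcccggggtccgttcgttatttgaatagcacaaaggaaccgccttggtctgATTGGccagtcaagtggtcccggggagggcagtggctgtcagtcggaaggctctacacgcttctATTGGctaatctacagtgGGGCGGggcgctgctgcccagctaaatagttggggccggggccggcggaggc

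The motifs differed between the genes. Ppp1r15a carried a palindromic TGACGTCA 12 to 5 bases before its RefSeq start, a match found in 1.55% of the 32851 RefSeq windows of 250 bases upstream of a start. Csrnp1 has 4 RefSeq starts, and the 1 shown, at 119983023, lies within the gene as annotated. There TGAGTCA occurred both 102 to 96 and 14 to 8 bases upstream, and an AP-1 match was present in 6.75% of windows. At the other starts of Csrnp1 all 250 bases lie in annotated exons and are not printed. No AP-1 match was found in the windows at those starts. The 6.75% is per window, and Csrnp1 has 4. Ier3 held 2 CCAAT boxes and an NF-kB match on the opposite strand 92 to 83 bases upstream, which overlaps a GC box, and 3.9% of windows held such a match. Ier5 and Ier5l each held 2 CCAAT boxes on the opposite strand with 1 or more GC boxes, which are common motifs (33.8% and 32.7% of windows). CArG boxes, to which serum response factor binds, the TATA box (TATAAA) and the E-box CACGTG were searched as well. They had no match in the 250-base windows of these 5 genes, which include Ier5l and not Ier2, against 1.47%, 12.4% and 6.02% of all windows. The search took TATAAA to the letter, and the printed Ier3 and Ier5 stretches hold TATAAG, which it did not count. Such matches describe the letters of these windows and show no binding.

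In the GENCODE M21 annotation (GRCm38) all 7 are protein-coding genes. Ier2 (ENSMUSG00000053560; chromosome 8, 84661331 to 84662852), Ier5 (ENSMUSG00000056708; chromosome 1, 155096361 to 155099636) and Ier5l (ENSMUSG00000089762; chromosome 2, 30471537 to 30474219) each consist of 1 exon. Ier3 (ENSMUSG00000003541; chromosome 17, 35821684 to 35822923) and Ppp1r15a (ENSMUSG00000040435; chromosome 7, 45522916 to 45526268) have 2 exonic blocks, Myc (ENSMUSG00000022346; chromosome 15, 61985391 to 61990374) has 4 and Csrnp1 (ENSMUSG00000032515; chromosome 9, 119971163 to 119984658) has 8. The exons of Csrnp1 share 224 bases with the antisense gene 1700019L13Rik and those of Ppp1r15a 12 bases with Tulp2 on the opposite strand. These partners reached at most 2.35 and 1.57 normalized read counts in any library, while whether counting used strand is not stated. No other gene covered 20% or more of the longest transcript of any of the 7 at 95% identity. Counts of a member ranged from 56 to 3273 reads per library.

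Some facts of the whole series bear on these genes. Libraries held between 13295701 and 19329908 reads, and 3 reads, taken as the detection floor, equal between 2.35 and 3.59 normalized read counts. Was lay between 96.9 and 154 in the WKO libraries and between 1308 and 1649 in the WT libraries. All 12 macrophage markers examined were detected in every group, with summed normalized read counts between 200900 and 343500. Markers of other cells were also present. The 12 stromal markers summed to between 186 and 3249 in all libraries but WKO confined replicate 5, which stands apart with 10180. The 12 markers of neutrophils and their progenitors summed to between 2958 and 11580 in WT libraries and between 8054 and 31370 in WKO libraries. The part of such markers in genotype differences of the 7 genes was not tested. The 7 B lineage markers summed to between 418.5 and 1048 in WT libraries and between 1794 and 6534 in WKO libraries. T and NK cell markers summed to at most 18.2, with Trac at 0 in all libraries. Dendritic cell markers summed to at most 130, and mast cell and basophil markers to at most 67.1. In bulk RNA, fewer cells of a type and less RNA per cell cannot be told apart.

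Confinement of WT cells raised Csrnp1, Ier3 and Ppp1r15a by between 5.38- and 13.6-fold, whereas Ier2, Ier5, Ier5l and Myc did not pass the test. Thus 3 of 7 genes passed as higher, against 0.891% of all tested genes. The median log2 difference was 1.71 over the 7 genes and -0.007 over all tested genes. In 5 of the 7 genes every confined WT library lay above every unconfined WT library, which held for 18.3% of all tested genes. All tests are from limma, fitted to log2(normalized read count + 1) of all 10 libraries with Benjamini-Hochberg adjustment over the 12455 tested genes, and the threshold is an adjusted p of 0.05.

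Csrnp1 had the largest response. Its normalized read counts were 98.8 and 85.4 in WT unconfined replicates 1 and 3, and 817, 1123 and 2186 in WT confined replicates 2, 3 and 6. Every confined library was several times above both unconfined ones, and replicate 6 was the highest. The log2 fold change was 3.76 (SE 0.55, limma adjusted p 0.00645), the 16th largest rise of all tested genes. In WKO cells Csrnp1 was at 76.0 and 206 in unconfined replicates 1 and 3 and at 2034, 951 and 3840.2 in confined replicates 1, 2 and 5. The confined libraries again stood clear of the unconfined ones although both groups were dispersed (141 ± 92.3, SD, n = 2, against 2275 ± 1460, SD, n = 3). The log2 fold change in WKO was 3.95 (SE 0.55, limma adjusted p 0.00409).

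Ier3, the survival and ERK regulator, rose in both genotypes. In WT cells it went from 87.4 and 75.8 in unconfined replicates 1 and 3 to 434, 633 and 899 in confined replicates 2, 3 and 6. The groups did not overlap, and the log2 fold change was 2.93 (SE 0.39, limma adjusted p 0.00383). In WKO cells it went from 199 and 287 in unconfined replicates 1 and 3 to 1915, 722 and 1729 in confined replicates 1, 2 and 5. These groups did not overlap either (a log2 difference of 2.48 with SE 0.39, limma adjusted p 0.00785). Both unconfined WKO libraries were above both unconfined WT libraries, but that difference did not pass (limma adjusted p 0.225). Such separation of unconfined genotypes, in either direction, was found for 44.9% of all tested genes.

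Ppp1r15a, which restores translation after stress, was at 288 and 199.6 in WT unconfined replicates 1 and 3 and at 946, 1310.4 and 1752 in WT confined replicates 2, 3 and 6. The lowest confined library lay well above both unconfined ones (log2 fold change 2.43, SE 0.43, limma adjusted p 0.0195). In WKO cells the unconfined libraries differed from each other, with 290.1 in replicate 1 and 696 in replicate 3. Confined replicates 1, 2 and 5 had 2112, 1254 and 3474, all above both of these (log2 fold change 2.22, SE 0.43, limma adjusted p 0.0244).

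Ier2 and Ier5 passed the threshold in WKO and not in WT cells, and the difference between the genotypes in this response did not pass (limma adjusted p 0.999 for both). Which genotype passed depended on the fit. With only the groups compared both passed in WT (adjusted p 0.0117 for Ier2 and 0.0254 for Ier5) and neither in WKO (0.171 and 0.0658), and with array weights both passed in WT as well (0.0323 and 0.0346). Ier2 was at 181 and 298 in WT unconfined replicates 1 and 3 and at 616, 683 and 1056 in WT confined replicates 2, 3 and 6 (log2 fold change 1.71, SE 0.44, limma adjusted p 0.108). In WKO cells it went from 279 and 225 to 1550.3, 513 and 1729 in replicates 1, 2 and 5 (log2 fold change 2.14, SE 0.44, limma adjusted p 0.0321). In neither genotype did confined and unconfined libraries overlap, and the lowest confined value of all 6 libraries was that of WKO replicate 2. Ier5 was at 974 and 1104 in WT and at 871 and 775 in WKO unconfined replicates 1 and 3. After confinement it reached 1649.8, 1747 and 2444 in WT replicates 2, 3 and 6 (a log2 difference of 0.89 with SE 0.22, limma adjusted p 0.0921) and 2568, 1637 and 2728 in WKO replicates 1, 2 and 5 (log2 fold change 1.46, SE 0.22, limma adjusted p 0.00613). Its spread was the smallest of the 5 genes whose groups did not overlap: the highest of the 6 confined libraries was 1.67 times the lowest.

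**Figure D1:**
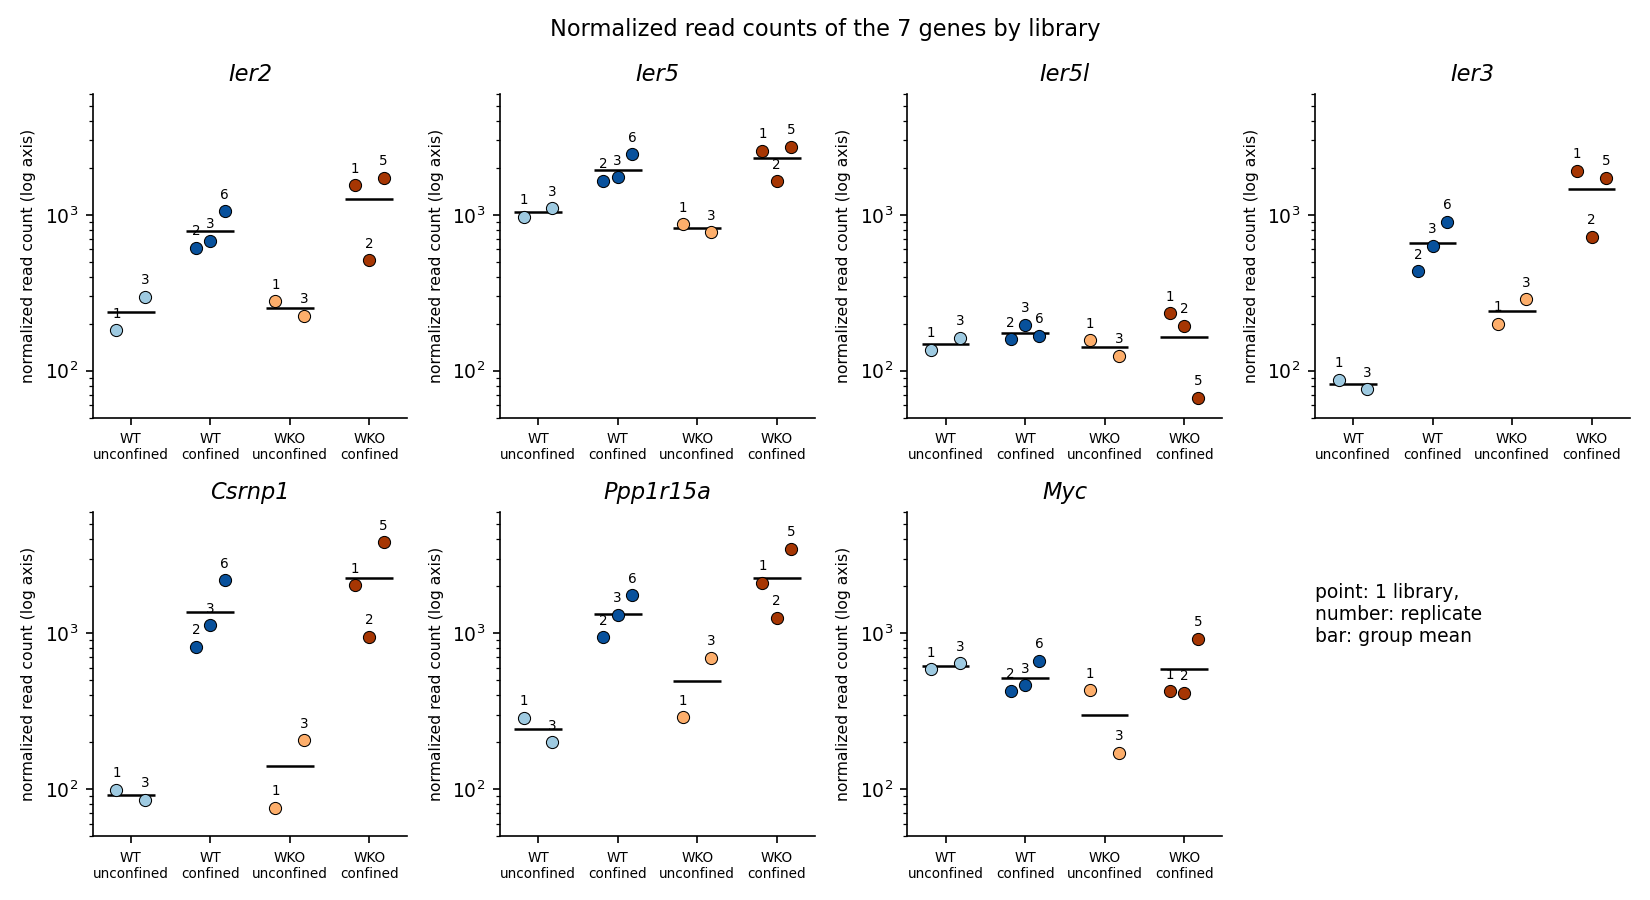
Normalized read counts (log axis) of the 7 genes in the 4 groups; each point is 1 library with its replicate number and each bar a group mean. Csrnp1, Ier3, Ppp1r15a, Ier2 and Ier5 were higher in all 6 confined than in all 4 unconfined libraries, whereas Ier5l and Myc overlapped. The share of all tested genes with this separation was not computed.

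In WKO cells, then, 5 of the 7 genes rose after confinement, against 1.49% of all tested genes, and in the same 5 the groups did not overlap with confined higher (14.5% of all tested genes). The median log2 difference over the 7 genes was 2.14, against -0.013 over all tested genes. Across genotypes, all 6 confined libraries lay above all 4 unconfined ones for these 5 genes. The share of all tested genes with this separation was not computed. As a ratio, the narrowest gap was that of Ppp1r15a, between 946 in WT confined replicate 2 and 696 in WKO unconfined replicate 3.

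Several settings ended calls. Without a mean-variance trend none of the 7 genes passed in either genotype, and with only the groups compared none passed in WKO. Without WT unconfined replicate 1 or without replicate 3 none passed in WT, while the log2 fold changes stayed near those with all libraries: 3.87 and 3.66 for Csrnp1 (adjusted p 0.0861 and 0.0876) and 3.03 and 2.83 for Ier3 (0.0569 and 0.0618). In WT 2 passed without WT confined replicate 3 or 6, where Ppp1r15a was lost (0.0788 and 0.082). Without WKO unconfined replicate 1 none passed in WKO (adjusted p from 0.0638 for Ier5 to 0.311 for Ppp1r15a), where the log2 fold change was 3.23 for Csrnp1, 2.22 for Ier3 and 1.59 for Ppp1r15a, and without its replicate 3 Ier2 (0.282) and Ier5 (0.0837) were lost. Ier2 was also lost in WKO without WT confined replicate 2 (0.0563) or 3 (0.061) or WT unconfined replicate 1 (0.0504), which do not enter its difference but enter the shared estimate of spread. Without WKO confined replicate 5, the library with the most stromal marker reads, the same 5 genes passed in WKO (Csrnp1 0.00197, Ier2 0.0421) and 5 passed in WT, where Ier2 had 0.0254 and Ier5 0.025. Without WKO confined replicate 2 the latter pair also passed in WT (0.0104 and 0.0338).

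Ier5l, the single-exon relative of Ier5, did not follow its namesakes. It was at 136 and 162 in WT unconfined replicates 1 and 3 and at 159, 197 and 168 in WT confined replicates 2, 3 and 6. The groups overlapped, and the log2 difference was 0.23 with a 95% interval from -0.68 to 1.13 (limma adjusted p 0.876). In WKO cells it was at 157 and 125 in unconfined replicates 1 and 3 and at 234, 194 and 67.1 in confined replicates 1, 2 and 5. Confined replicates 1 and 2 were thus above and replicate 5 below both unconfined libraries, with a log2 difference of 0.05 and an interval from -0.85 to 0.95 (limma adjusted p 0.974). As folds, the intervals run from 0.626 to 2.18 in WT and from 0.555 to 1.93 in WKO. A rise of the size fitted for Ier5 in WT, 1.85-fold, lies within both.

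Myc showed no rise in WT cells. It was at 587 and 644 in WT unconfined replicates 1 and 3 and at 426, 466 and 664 in WT confined replicates 2, 3 and 6, overlapping groups with a log2 difference of -0.27 (95% interval -1.13 to 0.58, limma adjusted p 0.838). In WKO cells it was at 430.15 and 171 in unconfined replicates 1 and 3 and at 424, 417 and 921 in confined replicates 1, 2 and 5. Replicate 3 was the lowest of all 10 libraries and confined replicate 5 the highest. The log2 difference of 1.01 (interval 0.15 to 1.86) had an unadjusted p of 0.025 and did not pass after adjustment (limma adjusted p 0.270). It was 0.34 without WKO unconfined replicate 3.

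**Figure D2:**
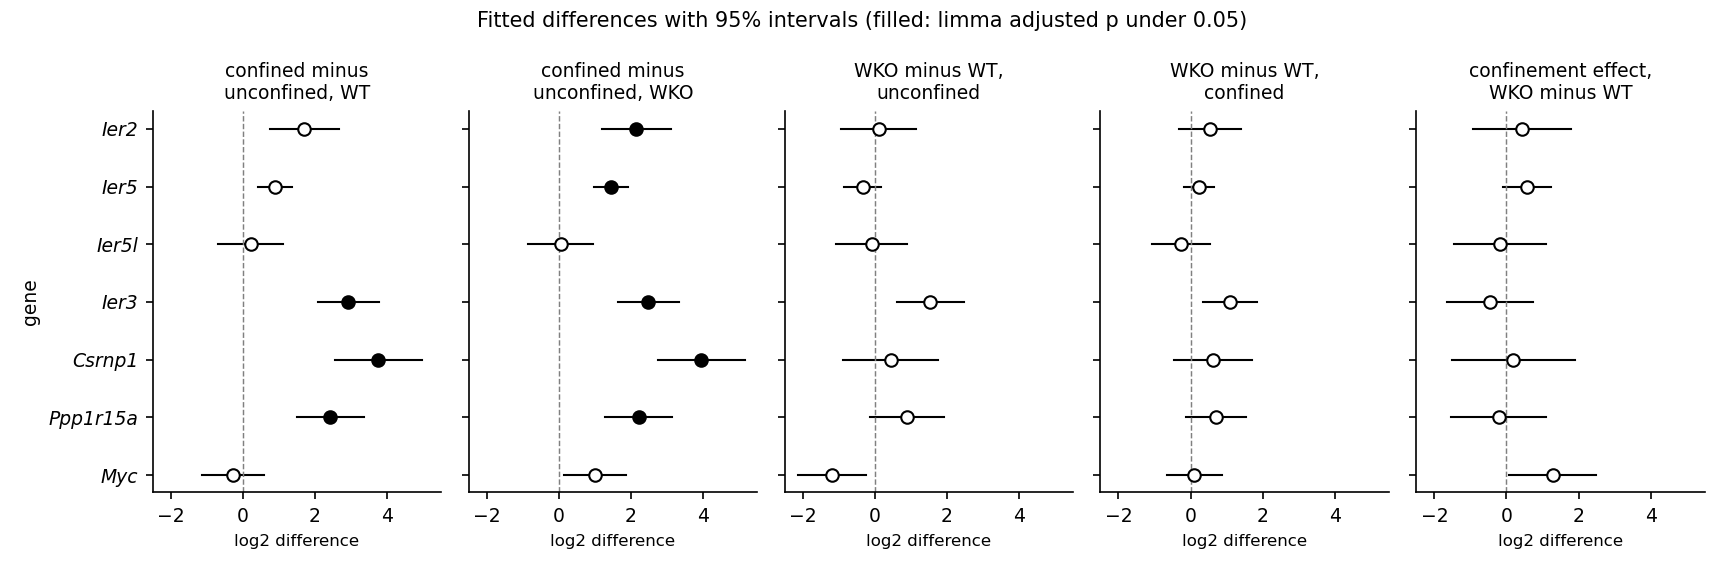
Fitted log2 differences of the 7 genes (horizontal axis) with 95% intervals in each of the 5 comparisons; filled points have a limma adjusted p under 0.05. Filled points occur in the 2 confinement comparisons only, 3 in WT and 5 in WKO.

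Between the genotypes none of the 7 genes passed in either condition. In unconfined cells 0 of 7 passed with limma, against 0.145% of all tested genes, and 2 had an unadjusted p under 0.05, against 9.6% of all tested genes. These were Ier3, higher in WKO (81.6 ± 8.19 in WT against 243 ± 62.0 in WKO, SD, n = 2 each; log2 difference 1.54, SE 0.42, limma adjusted p 0.225), and Myc, lower in WKO (615.5 ± 40.2 against 301 ± 183; log2 difference -1.18, SE 0.43, limma adjusted p 0.390). Ppp1r15a was 1.87 times as high in WKO, with a 95% interval from 0.923 to 3.79. The libraries of the genotypes did not overlap for Ier3 and Ppp1r15a, higher in WKO, and for Ier5 and Myc, lower in WKO. Such separation of 2 libraries from 2 was found for 44.9% of all tested genes. Without WKO unconfined replicate 3 the Myc difference was -0.51 and that of Ppp1r15a 0.27. The count of members that passed was 0 with edgeR and with DESeq2, and 1 with only the groups compared, where Ier3 passed (adjusted p 0.0306).

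In confined cells 0 of 7 passed with limma between the genotypes, against 2.59% of all tested genes, and Ier3 alone had an unadjusted p under 0.05, against 16.8% of all tested genes. Ier3 was at 655 ± 233 in WT and 1455 ± 642 in WKO (SD, n = 3 each; log2 difference 1.09, 95% interval 0.33 to 1.85, limma adjusted p 0.125). WKO replicate 2, with 722, lay within the WT range. Without that library Ier3 passed (log2 difference 1.53, limma adjusted p 0.020). For 6 of the 7 genes the fitted difference was higher in WKO, with a median of 0.54 against 0.004 over all tested genes. The groups overlapped in all 7, whereas 21.1% of all tested genes had groups that did not overlap. With array weights, which give less weight to variable libraries, Ier2, Ier5 and Csrnp1 took the opposite sign (-0.29, -0.091 and -0.12), as did Myc and Ier5l. The count of members that passed was 0 with edgeR and with DESeq2. The genotype and confinement comparisons share libraries, so that a low unconfined value of Myc in WKO enters both.

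The difference in response between genotypes was tested directly, as the WKO response less the WT response. With limma 0 of 7 genes passed, against 0% of all tested genes (258, or 2.07%, had an unadjusted p under 0.05), and edgeR and DESeq2 also called 0. Myc was the 1 gene of the 7 with an unadjusted p under 0.05, 0.0402, with a difference of 1.28 (SE 0.55, 95% interval 0.07 to 2.49, limma adjusted p 0.999). For Ier5 the difference was 0.57 (interval -0.11 to 1.24), for Csrnp1 0.18 (-1.52 to 1.89), for Ier3 -0.45 (-1.65 to 0.74) and for Ppp1r15a -0.21 (-1.53 to 1.11). These intervals are wide, and the data do not show that the genotypes respond alike.

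**Figure D3:**
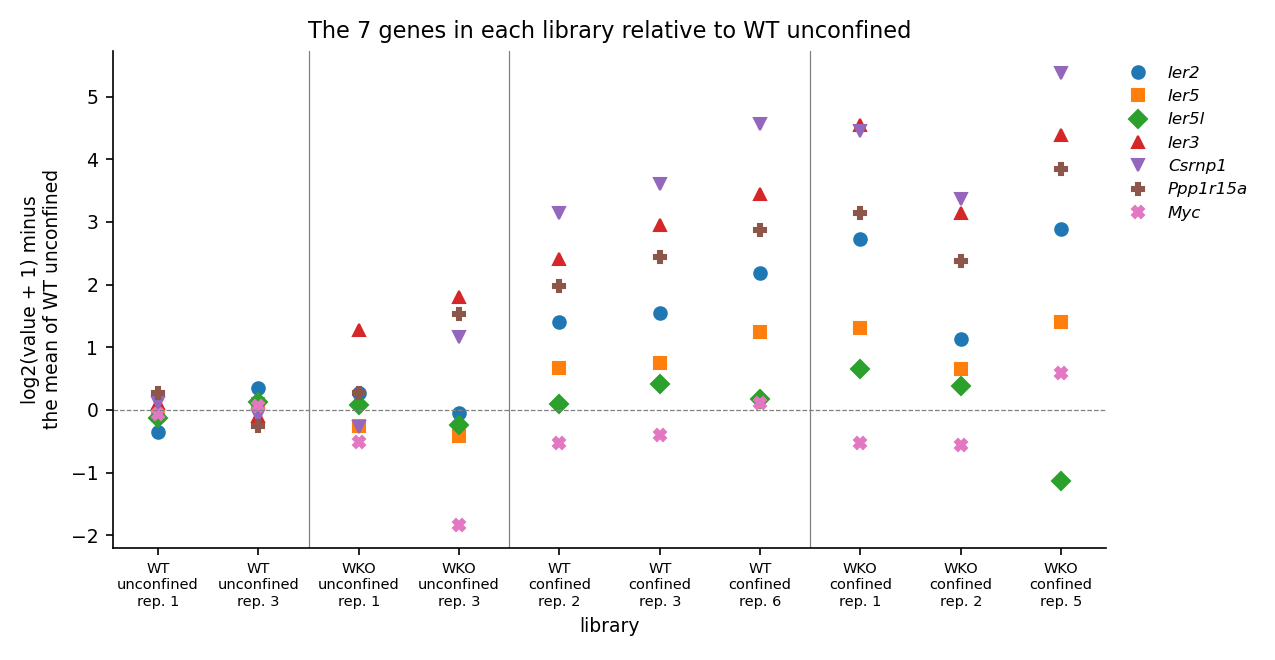
The 7 genes in each of the 10 libraries (horizontal axis), as log2(normalized read count + 1) minus the mean of the 2 WT unconfined libraries. Among confined libraries, WT replicate 6 and WKO replicates 1 and 5 are the highest for Csrnp1, Ier3, Ppp1r15a, Ier2 and Ier5, and Ier5l is lowest in WKO replicate 5.

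The confined libraries of a group were ordered in much the same way by the 5 responding genes. In WT, replicate 2 was the lowest and replicate 6 the highest for all 5. In WKO, replicate 2 was the lowest for all 5, and replicate 5 the highest for all but Ier3, for which replicate 1 was. The range was widest for Csrnp1, 4.70-fold between the lowest and the highest of the 6 confined libraries, followed by Ier3 with 4.41-fold, Ppp1r15a with 3.67-fold and Ier2 with 3.37-fold. The summed stromal markers followed the same order within the confined groups: 186, 242 and 781 in WT replicates 2, 3 and 6, and 908, 3249 and 10180 in WKO replicates 2, 1 and 5. Across conditions they did not, because the unconfined libraries, with 886 and 1842 in WT and 2438 and 2883 in WKO, exceeded all 3 confined WT libraries while the 5 genes were lower in them. Neutrophil and progenitor markers summed to 7309, 9073 and 2958 in WT confined replicates 2, 3 and 6 and to 29390, 22750 and 8054 in WKO confined replicates 2, 1 and 5. The part of these markers in the spread of the 5 genes was not tested. Among unconfined libraries WKO replicate 3 was the highest for Csrnp1, Ppp1r15a and Ier3 and the lowest for Ier5, Ier5l and Myc.

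Levels were compared between genes as normalized read counts per kilobase of annotated exon. In WT unconfined cells Ier5 was the highest with 317 ± 28.0 (SD, n = 2), followed by Myc (226.5 ± 14.8) and Ier2 (157 ± 53.9). Ppp1r15a (83.0 ± 21.2), Ier3 (72.2 ± 7.24) and Ier5l (55.5 ± 6.94) followed, with the first 2 of these overlapping, and Csrnp1 was the lowest at 26.5 ± 2.73. After confinement of WT cells the order changed: Ier5 (594 ± 132, SD, n = 3), Ier3 (580 ± 206), Ier2 (516 ± 156), Ppp1r15a (455 ± 137) and Csrnp1 (396 ± 207) had overlapping ranges. Myc (191 ± 47.0) had a lower mean, its highest library (244.5) overlapping the lowest of Csrnp1 (235), and Ier5l (65.0 ± 7.49) was below all others. In WKO unconfined cells Ier5 (251 ± 20.7) and Ier3 (215 ± 54.8) led, their ranges overlapping, followed by Ppp1r15a (168 ± 97.7), Ier2 (166 ± 25.2), Myc (111 ± 67.3), Ier5l (52.5 ± 8.42) and Csrnp1 (40.7 ± 26.6). In that group each gene from Ier5 to Myc overlapped the next in order, and so did Ier5l and Csrnp1. In confined WKO cells Ier3 had the highest mean, 1287 ± 567, ahead of Ier2 (830.5 ± 432), Ppp1r15a (776 ± 381), Ier5 (706 ± 180) and Csrnp1 (655 ± 420), all overlapping. The range of Myc (216 ± 106) overlapped those of Csrnp1 and Ier2, and Ier5l (61.45 ± 32.4) was below all others.

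The genes whose log2 values over the 10 libraries were most like those of each member were listed as a description; the libraries differ by confinement, which all such pairs share. Among 10210 candidate genes with a mean of at least 50, Csrnp1 was most like Socs3, Nfkbia and Nfkbiz (Pearson r 0.992, 0.991 and 0.988), which are feedback inhibitors or co-regulators of cytokine and NF-kB signalling. Ppp1r15a was most like Btg2, Socs3 and Map3k8 (0.985, 0.982 and 0.980), and Ier3 most like Map3k8, Ell and Btg2 (0.969, 0.964 and 0.958). Ier5 was most like the immediate early factors Jun and Egr1 and the NF-kB inhibitor gene Nfkbid (0.980, 0.977 and 0.976). Ier2 was most like Hexim1 and Brd2, which regulate the release of paused RNA polymerase II, and Gpr84 (0.978, 0.960 and 0.955). The nearest genes to Ier5l were Mien1 and the mitochondrial ribosomal protein genes Mrpl51 and Mrps14 (0.966, 0.953 and 0.939). Those of Myc, Plk2, Gm14636 and Hbegf, were less close (0.922, 0.913 and 0.910).

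Other immediate early genes responded in the same experiment. Of 42 listed, 41 were tested. After confinement 20 rose and 1, Dusp6, fell in WT (median log2 difference 1.55), and 25 rose in WKO (median 1.90), against medians of -0.007 and -0.013 over all tested genes. For this and the lists below, 0.891% of all tested genes rose in WT and 1.49% in WKO. Without WKO confined replicate 5, a setting chosen after seeing the data, 25 rose and 3 fell in WT, where calls over all tested genes went from 144 to 397, and 26 rose in WKO, where they went from 214 to 240. Klf4, a zinc-finger transcription factor of macrophage activation, had the smallest p in WT, with a log2 fold change of 3.26 (SE 0.23, limma adjusted p 0.000125). In WKO its log2 fold change was 4.03. The AP-1 gene Fosb followed, going from 59.0 ± 50.9 (SD, n = 2) to 1779 ± 232 (SD, n = 3) in WT, and then the nuclear receptor gene Nr4a1 (log2 fold change 3.62) and the AP-1 gene Fosl2 (1.52). Between the genotypes 0 of these genes passed in unconfined and 2 in confined cells, Klf4 and the matricellular gene Ccn1, both higher in WKO (log2 differences 1.08 and 3.16, limma adjusted p 0.0196 and 0.0171), against 2.59% of all tested genes. In the same comparison 11 of 11 tested stromal markers had a positive sign and 6 passed (median 3.55), and these markers summed highest in WKO confined replicate 5. Their part in the Ccn1 and Klf4 differences was not tested. Without that library 3 of the listed genes were higher and 1 lower in confined WKO than WT cells. The share of all tested genes called in that fit is not given here. Over the fits that leave out 1 library, calls in this comparison ranged from 58 to 701.

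**Figure D4:**
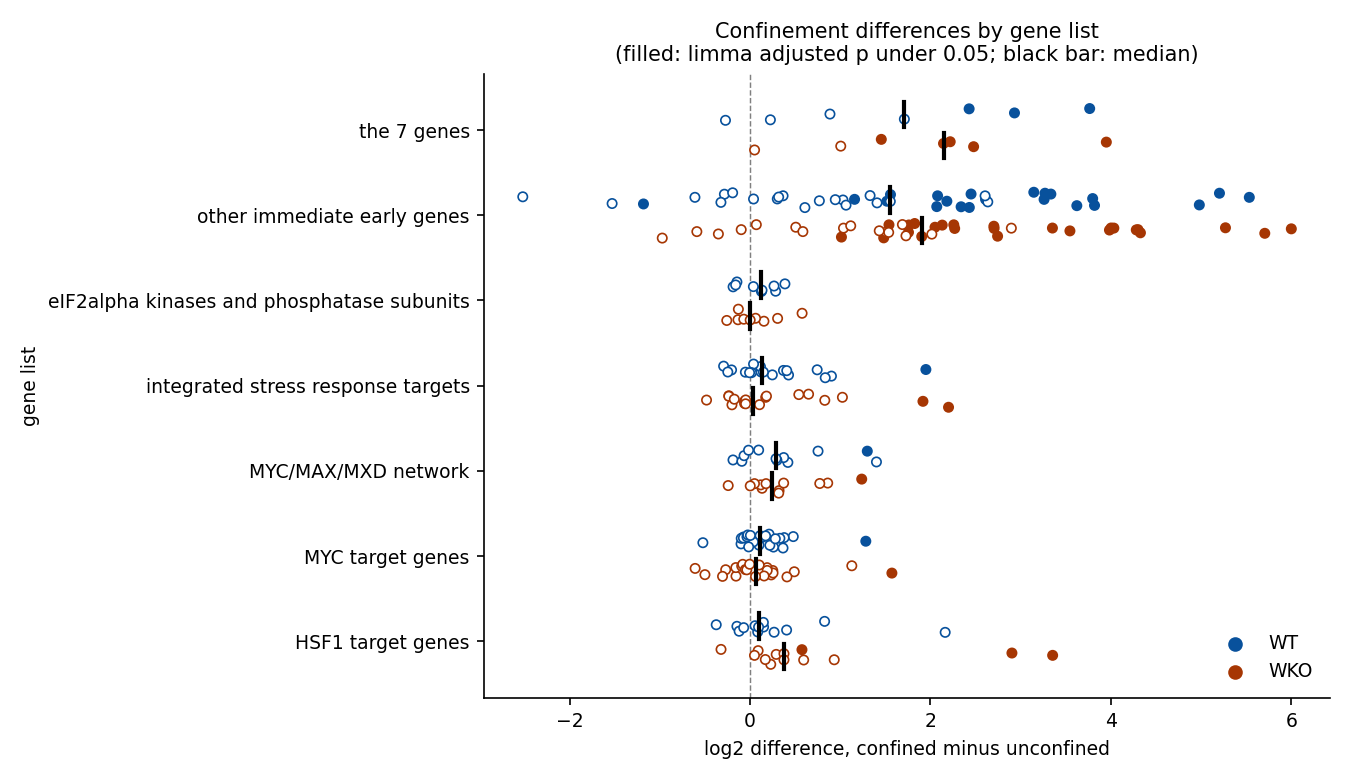
Log2 differences between confined and unconfined cells (horizontal axis) for the 7 genes and 6 gene lists, WT in blue and WKO in brown; each point is a gene, filled where the limma adjusted p is under 0.05, and black bars are medians. The medians of the 7 genes (1.71 and 2.14) and of other immediate early genes (1.55 and 1.90) lie to the right of those of the other lists drawn, which run from 0.002 to 0.38. The family relatives of the 7 genes, 3 tested, are not drawn (medians 0.87 and 0.77).

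Other genes of the pathway in which Ppp1r15a acts were examined. Of 9 genes for eIF2alpha, its kinases, the constitutive partner Ppp1r15b and the catalytic subunits of protein phosphatase 1, 0 passed with limma in either genotype after confinement (medians 0.13 in WT and 0.002 in WKO). Ppp1r15b had log2 differences of 0.28 in WT and 0.58 in WKO (limma adjusted p 0.446 and 0.0649), and Eif2ak3, the kinase PERK, of -0.19 and -0.13. Of 18 tested target genes of the integrated stress response, 1 rose in WT, Cebpb, and 2 in WKO, Cebpb and the cystine transporter gene Slc7a11. Cebpb, a transcription factor also induced by inflammatory signals, went from 1039 ± 689 to 3562 ± 402 in WT (log2 fold change 1.95, SE 0.35, limma adjusted p 0.0218). Atf4, the central factor of the response at which control is mostly translational, had log2 differences of 0.37 in WT and 0.83 in WKO (limma adjusted p 0.482 and 0.0572), and its target Ddit3 of 0.15 and -0.05. In confined cells 4 of these genes were lower in WKO than in WT: Asns, Gpt2, Mthfd2 and Phgdh, enzymes of amino acid and one-carbon metabolism, with log2 differences between -1.01 and -0.61, against 2.59% of all tested genes that passed in either direction. In unconfined cells the log2 differences between the genotypes were -0.75 for Asns, -0.87 for Mthfd2 and -0.82 for Phgdh, with groups that did not overlap (limma adjusted p 0.241, 0.198 and 0.349), and -0.13 for Gpt2. Names given here because they make up a small count, or because of their part in the pathway (Dusp6, Ccn1, Slc7a11, the 4 enzymes, Ppp1r15b, Eif2ak3, Atf4 and Ddit3, and below Max, Srm, Hspd1, Hspa1a, Hspa1b, Hsp90aa1, Csrnp2 and Mycl), were chosen after their values were seen.

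Around Myc, the antagonist Mxd1 was the 1 gene of 12 tested in the MYC, MAX and MXD network that rose in either genotype. Mxd1, which competes with MYC for MAX, went from 372 ± 9.47 to 922 ± 103 in WT (a log2 difference of 1.30 with SE 0.19, limma adjusted p 0.00597) and rose by 1.24 in WKO (limma adjusted p 0.00654). Mxd1 was also higher in WKO than in WT in confined cells (0.78, limma adjusted p 0.034). In unconfined cells its log2 difference between the genotypes was 0.84 and did not pass (limma adjusted p 0.147). Max itself had log2 differences of 0.10 and 0.32 after confinement (limma adjusted p 0.835 and 0.313). Of 23 tested MYC target genes, 1 rose in each genotype, the polyamine synthesis gene Odc1 (log2 fold changes 1.28 and 1.57, limma adjusted p 0.0146 and 0.00374), and the medians were 0.11 and 0.06. Between the genotypes the medians of these targets were -0.24 in unconfined cells, where 0 passed, and -0.30 in confined cells, where Srm and Hspd1 were lower in WKO, against 0.002 and 0.004 over all tested genes. In each condition 3 of the 23 had a positive sign.

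HSF1 target genes, to which IER5 is linked, were examined beside Ier5. Of 13 tested, 0 passed with limma in WT (median 0.09) and 3 rose in WKO (median 0.38), Hspa1a, Hspa1b and Hsp90aa1. Hspa1a and Hspa1b are nearly identical, and their reads may not be separable. Hspa1a went from 19.7 ± 2.77 (SD, n = 2) to 244 ± 149 (SD, n = 3) in WKO (log2 fold change 3.35, limma adjusted p 0.00542) and had a log2 difference of 2.16 in WT (limma adjusted p 0.0662). In the difference between the responses all 13 had a positive sign and 0 passed, as had 35 of 41 other immediate early genes with 0 passing. The medians were 0.19 for the 13, 0.59 for the 41 and 0.006 over all tested genes. The share of positive signs over all tested genes was not computed. The unconfined WKO libraries enter this difference, and in them 2 of the 13 were higher than in WT (median -0.16). Among the family relatives of the 7 genes, Csrnp2 had log2 differences of 0.87 in WT and 1.23 in WKO (limma adjusted p 0.240 and 0.0694). Mycl was near the detection floor in WT unconfined cells at 4.30 ± 2.06 (SD, n = 2), and of 5 listed relatives 3 were tested and 0 passed in either genotype.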

How the data were processed

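The values are a signal that the authors deposited in 1 table, with 57010 Ensembl identifiers as rows and the 10 libraries as columns: normalized read counts. FastQC, Trim Galore and STAR, and the builds GRCm38 and mm10, are named in the submitters' processing notes; the counting tool, annotation and use of strand are not given in the sources used here, and 140 tested identifiers were not in GENCODE M21. In every library 100% of values gave whole reads (tolerance 0.01) after multiplication by 1 factor; the deposited signal is reads divided by 1 factor per library, which does not remove differences in composition, GC content or length. Per the labels, the input to the messenger RNA library kit was 5 ng.

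Genes with a mean of at least 10 were tested with limma 3.58.1 in R 4.3.3 on log2(value + 1), with 1 mean per group, a mean-variance trend and all 10 libraries in 1 fit; this scale understates the change of low genes. Intervals are 95% intervals of the moderated fit. The code was tested on simulated data. Alternatives used a pseudocount of 5, no filter, TMM scaling, edgeR 4.0.16 and DESeq2 1.42.0 on the recovered reads, no trend, array weights, only the groups compared, the replicate number as a block, and each library left out. edgeR with its quasi-likelihood test on the reads called 116 genes for confinement in WT and 186 in WKO, against 144 and 214 with limma. Replicate pairs differed by more than sampling noise (chi-square per degree of freedom between 7.56 and 78.3). Similar sequences were sought with blastn 2.17.0. Intervals and the floor of 3 reads cover counting or library spread only, since PCR reads without molecular identifiers are not independent molecules.

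The members and lists were chosen with earlier results of these data known. Named are the 7 members, Was, up to 4 genes of smallest p in WT per list, and the 3 genes most like each member. Promoter windows were found in the RefSeq table for 5 of the 7 genes.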

Additional observations from a re-analysis of the deposited data

How the results depend on the processing

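Of the fitted values of the 7 genes, 271 kept direction and side of the threshold across the settings that use all libraries or only the groups compared, 14 lost a call, 11 gained one and 12 changed sign. No cause was tested for these changes except that fewer libraries or genes entered some fits. Main counts of members that passed were 3 for confinement in WT, 5 in WKO and 0 elsewhere. In WT the count was 0 without a mean-variance trend and 5 with array weights, and 5 with only the groups compared. In WKO it was 0 both without the trend and with only the groups compared. With only the groups compared, 1 member passed between unconfined genotypes (Ier3, adjusted p 0.0306). Over all tested genes the main counts were 144 and 214 for confinement in WT and WKO and 18 and 322 between unconfined and confined genotypes. In that order they were 333, 486, 179 and 775 with DESeq2, 20, 45, 4 and 53 without the trend, 419, 1735, 166 and 1948 with array weights, and 455, 33, 189 and 90 with only the groups compared. Without a filter the genotype counts were 10 and 186. With array weights the confined genotype difference changed sign for Ier2 (-0.29), Ier5 (-0.091), Ier5l (0.031), Csrnp1 (-0.12) and Myc (-0.16), and the difference of responses for Ier2 (-0.40), Ier5l (0.11) and Csrnp1 (-0.56); with DESeq2 that of Ier5l became 0.0066. None of these values passed. TMM scaling moved a library's median log2 value by at most 0.0114.

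Correlations gave no clear sign that replicate numbers in the titles pair the libraries: over 7 same-numbered pairs those of deviations from group means ran from -0.11 to 0.0764. In a group of 2 libraries the deviations mirror each other, so these pairs are not independent. Whether the numbers mark shared mice or days cannot be told from them. With the replicate block 5 members passed in WT, 2 between unconfined genotypes (Ier3, adjusted p 0.0035, and Myc, 0.0407) and 1 between confined genotypes (Ier3, 0.0306), and 245 of all genes between unconfined genotypes. The replicate block turned the sign of Ier5l (0.26) and Myc (-0.31) between confined genotypes and of Ier5l in the difference of responses (0.34).

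Leaving out each library in turn gave 0 to 5 members and 22 to 397 genes for confinement in WT, 0 to 5 and 43 to 1043 in WKO, 0 members and 4 to 141 genes between unconfined genotypes, 0 to 1 and 58 to 701 between confined genotypes, and 0 and 0 for the difference of responses. Where this leaves 1 library in a group, that library is assumed to vary like the other groups. Signs changed on leaving out a library for Ier5l with confinement in WKO (-0.29 to 0.60), for Ier2 (-0.25 to 0.46), Ier5l (-0.25 to 0.079) and Csrnp1 (-0.27 to 1.16) between unconfined genotypes, for Ier5l (-0.60 to 0.29) and Myc (-0.27 to 0.30) between confined genotypes, and for Ier5l (-0.52 to 0.37), Csrnp1 (-0.53 to 0.90) and Ppp1r15a (-0.84 to 0.42) in the difference of responses. Without WKO confined replicate 5, 1 other immediate early gene passed between unconfined and 4 between confined genotypes, against 0 and 2. Over all tested genes, 141 passed between unconfined genotypes without that library, against 18 in the main fit.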
